A study of Mus musculus with 17 samples.

Results

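The Hoxb cluster genes Hoxb1 to Hoxb9 were read in mouse hematopoietic stem and progenitor cells through every non-control probe of the Agilent mouse genome array that carried one of their names. This gave 14 probes for 9 genes, out of 41174 probes and 28090 gene names, and Hoxb2, Hoxb3, Hoxb6, Hoxb8 and Hoxb9 had 2 probes each. The mRNA of 6 populations sorted from the bone marrow of female C57Bl/6 mice, 6 to 8 weeks old, was measured on 17 single-color arrays. These were 2 arrays of long-term hematopoietic stem cells (LT-HSC) and 3 each of short-term stem cells (ST-HSC), multipotent progenitors (MPP), common myeloid progenitors (CMP), granulocyte-monocyte progenitors (GMP) and megakaryocyte-erythroid progenitors (MEP). By the methods, marrow was stripped of cells with mature lineage antigens and enriched for c-kit before sorting, and each replicate sample pooled 10 to 20 mice. LT-HSC, ST-HSC and MPP, here the HSC subsets, came from one sort and CMP, GMP and MEP, the myeloid populations, from a separate one. Of the LT-HSC arrays one was made from replicates 2 and 3 pooled, and every population had 1 array with no replicate number.

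Hox genes encode homeodomain transcription factors that lie in clusters in mammals, in an order along the chromosome that matches their order of use along the body axis. Numbered groups of paralogs recur between clusters, so that Hoxb4 has a relative in the Hoxa cluster. Hox proteins bind DNA together with cofactors of the Meis and Pbx families. In blood, Hoxb4 is known for expanding stem cells when it is supplied in excess, and Hoxb5 is known as a marker of long-term stem cells.

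Hoxb mRNA lay on the HSC side of the hierarchy, but gene by gene rather than as a block. Between HSC subsets and myeloid populations, 8 of the 14 Hoxb probes were higher and 0 lower in limma with Benjamini-Hochberg adjustment at 0.05, and these 8 probes named 6 genes. The count was 6 with normexp background correction and in the authors' table, where both Hoxb9 probes were lost, and 6 with slide as a random block, where Hoxb7 and the first Hoxb9 probe were lost. It was 7 with the replicate number as a block and 10 with 75th percentile scaling. Over all probes 41.3% were called in this comparison, 18.2% higher and 23.1% lower. That share was 40.1% with normexp and in the authors' table and 28.7% with slide as a random block. It was 39.0% with the replicate number as a block and 41.1% with 75th percentile scaling. The median difference of the 14 Hoxb probes was 1.15 on the log2 scale, against -0.02 over all probes. It was 0.22 with normexp and 0.39 in the authors' table, against -0.01 over all probes in both, and 1.82 with 75th percentile scaling, where the median of all probes was 0.31. The scan date term lowered it to 0.15, against -0.08 over all probes, and 4 of the 14 were called, where 13.2% of all probes were. The first probes of Hoxb2 and Hoxb3 and the probe of Hoxb5, at the anterior end and in the middle of the cluster, were 4.32-fold to 6.01-fold higher, and were also called when the scan date of the arrays was added to the fit. Their log2 differences of 2.59, 2.42 and 2.11 were smaller but still called with normexp background correction, at 0.75, 0.55 and 0.37, and in the authors' table, at 1.26, 0.97 and 0.66. The second Hoxb3 probe was at 0.19 and not called. One Hoxb6 probe, though not the brightest, Hoxb7 and both Hoxb9 probes were called without scan date in the fit and not with it. Hoxb4 was measured on every array and was not called, and Hoxb8 was not well above background on any array.

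The sequences of 2 probes are shown, in lower case. The probe for Hoxb4 (A_52_P565957) is that of the member best known in blood stem cells, measured on every array. The other, A_51_P257789, is shown because what it reads is uncertain. It carries the name Hoxb2 but was designed to a cDNA clone that the files place on the descending strand, between the other Hoxb2 probe and Hoxb3.
Hoxb4: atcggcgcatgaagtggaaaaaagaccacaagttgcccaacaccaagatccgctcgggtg
Hoxb2, clone probe: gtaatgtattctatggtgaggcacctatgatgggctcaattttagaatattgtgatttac
The clone probe for Hoxb2 lies on the opposite strand by the listed coordinates, so its values are given as those of the clone and are uncertain for Hoxb2.

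By the files' mm9 coordinates, all probes lie on chromosome 11 and the cluster runs downward from Hoxb1 to Hoxb9. The probe of Hoxb1 is at 96228450 to 96228510. The first Hoxb2 probe is at 96215122 to 96215181, and the clone probe at 96211860 to 96211919. The first Hoxb3 probe is at 96209002 to 96209061, and the second at 96207114 to 96207173. Hoxb4 was probed at 96181521 to 96181580 and Hoxb5 at 96167130 to 96167189. The 2 Hoxb6 probes lie at 96162563 to 96162622 and 96160281 to 96160340. The probe of Hoxb7 is at 96151211 to 96151270, those of Hoxb8 at 96146456 to 96146515 and 96143892 to 96143951, and those of Hoxb9 at 96137748 to 96137807 and 96137065 to 96137124. Whether each lies in coding sequence or in a UTR was not read here, since no annotation of mm9 was used.

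Promoter windows were at hand for Hoxb1, Hoxb4 and Hoxb8 (RefSeq, GRCm38.p6, plus strand, 250 bases before the transcription start). Those of Hoxb4, detected on all 17 arrays, and Hoxb8, detected on none, are shown. Capitals mark the letters CCAAT and TATAAA on either strand, and CACGTG was searched as well.
Hoxb4, chr11:96318017-96318266: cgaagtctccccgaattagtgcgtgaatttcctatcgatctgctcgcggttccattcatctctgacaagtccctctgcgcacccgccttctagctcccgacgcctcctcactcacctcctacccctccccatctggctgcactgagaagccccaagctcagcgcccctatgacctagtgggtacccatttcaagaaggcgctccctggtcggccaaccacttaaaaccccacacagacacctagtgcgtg
Hoxb8, chr11:96281655-96281904: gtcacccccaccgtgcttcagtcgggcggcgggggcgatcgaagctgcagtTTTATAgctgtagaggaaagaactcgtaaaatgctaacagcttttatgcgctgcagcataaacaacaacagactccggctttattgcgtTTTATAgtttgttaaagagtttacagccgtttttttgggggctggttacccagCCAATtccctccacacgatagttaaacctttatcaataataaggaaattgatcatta
The Hoxb4 window was 58.0% G or C and held none of the 3 motifs. The Hoxb8 window was 44.4% G or C. It held CCAAT on the plus strand at positions -57 to -53, and TATAAA on the other strand, at positions -199 to -194 and -110 to -105 from the start. Over 32851 promoter windows of the same length, 33.8% held CCAAT, 6.02% CACGTG and 12.4% TATAAA. These matches are descriptions of the letters.

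The arrays differed in ways that touch the Hoxb values. They were scanned on 4 dates and lay on 6 slides, and whether a date also marked an extraction was not given. CMP, GMP and MEP replicates 1 and 2 shared one date, both LT-HSC arrays and replicates 2 and 3 of ST-HSC and MPP another, the unnumbered MPP, CMP and GMP one more, and the unnumbered ST-HSC and MEP the last. HSC subsets and myeloid populations could thus be compared within a slide on 2 slides only. Since they also came from separate sorts, side and sort cannot be told apart, with or without scan date in the fit. Depending on the array, 41.4% to 70.1% of non-control spots stood well above background. The lowest share was that of the unnumbered LT-HSC array, whose 75th percentile of intensity was 53.1 against 243 to 534 on the others. The mean level of 8 HSC marker genes was highest in LT-HSC, from 10.34 to 10.61 on the log2 scale, and lowest in MEP, from 5.25 to 5.72. B cell genes moved with LT-HSC. The mean of 6 B cell markers lay at 8.76 to 9.12 on the LT-HSC arrays against 5.48 to 7.49 on all others, with 4 of the 6 well above background on both LT-HSC arrays and Pax5 on neither. The mean of 6 T cell markers was 6.70 to 6.77 in LT-HSC and 3.69 to 6.48 elsewhere. The mean of 7 mature neutrophil markers was 11.53 to 12.86 in LT-HSC, 11.07 to 12.56 in ST-HSC and 9.62 to 11.60 in MPP, against 9.43 to 11.37 in the myeloid populations. One of them, S100a8, had means of 16.06 in LT-HSC, 15.40 in ST-HSC and 12.67 to 13.66 in the other 4 populations. The mean of 6 mature erythroid markers was 8.17 to 8.86 in LT-HSC, 6.42 to 8.20 in ST-HSC and MPP, 4.74 to 6.89 in CMP and GMP and 9.60 to 10.90 in MEP. The part of these cells in the Hoxb values was not tested. In sorted bulk populations, fewer cells with a transcript and less transcript per cell cannot be told apart.

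Levels below are quantile-normalized log2 intensities, and levels of different probes are not comparable. All p-values are limma's, adjusted over all 41174 probes, and measure the spread between pooled samples. Where no array of one group was well above background, only a lower bound on the fold is given. It was set, array by array, against the dimmest probe detected there or the probe's own level if that was higher, so that it often equals the fitted fold. The folds between HSC subsets and myeloid populations of the first Hoxb2 and Hoxb3 probes and of Hoxb5 are fitted ones. Each includes a myeloid population with no array well above background, so it rests partly on readings near background.

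Hoxb2, which patterns the hindbrain in the embryo, fell stepwise through the HSC subsets. Its first probe read 7.68 and 6.82 in LT-HSC, 6.57, 6.46 and 6.58 in ST-HSC, and 5.07, 5.60 and 4.96 in MPP. It read 3.64, 4.49 and 4.49 in CMP, 3.50, 2.85 and 2.52 in GMP, and 3.87, 4.49 and 3.86 in MEP. Every HSC array was above every myeloid array, and no GMP or MEP array was well above background. The HSC minus myeloid difference was 2.59 ± 0.20 (SE, 8 against 9 arrays), 6.01-fold, with an adjusted p of 6.49e-07. With scan date in the fit it was 2.58 (adjusted p = 0.00494). The probe for Hoxb2 was one of only 2 Hoxb probes without overlap between the sides, the other being Hoxb3, while 2.53% of all probes had every HSC array above every myeloid array.

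Within the HSC subsets, LT-HSC exceeded MPP by 2.04 in Hoxb2 (4.10-fold, adjusted p = 0.00482), a call that held with any 1 of the 17 arrays left out. The smaller steps did not pass, at 0.71 from LT-HSC to ST-HSC (adjusted p = 0.353), 1.33 from ST-HSC to MPP (0.0592) and 1.0 from MPP to CMP (0.0615). Among myeloid populations CMP exceeded GMP at least 2.38-fold (adjusted p = 0.0438). That call was lost without any one of 11 arrays, with adjusted p up to 0.189, with scan date in the fit (0.0645) and with the replicate number as a block (0.0553). It was also lost with normexp background correction and in the authors' table. MEP lay 1.12 above GMP (adjusted p = 0.0288), both below the detection mark, so no fold is given. This call was lost without GMP replicate 2 (0.0893), the unnumbered GMP (0.127) or MEP replicate 2 (0.121), with scan date in the fit (0.0773), with normexp background correction (a difference of -0.15 for GMP minus MEP, 0.432) and in the authors' table (-0.20, 0.559). It held with the replicate number as a block (0.0357).

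The clone probe named Hoxb2 had another pattern inside the HSC subsets. It read 4.19 and 2.31 in LT-HSC, 4.17, 3.14 and 5.03 in ST-HSC, 3.45, 3.54 and 4.40 in MPP, and between 2.13 and 3.19 on the 9 myeloid arrays. It was well above background on all ST-HSC and MPP arrays and on no other. HSC subsets exceeded myeloid populations at least 2.48-fold (difference 1.31 ± 0.30 SE, adjusted p = 0.00309), and by 2.13 with scan date in the fit (0.0285).

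Hoxb3, the neighbour of Hoxb2 and also a hindbrain gene, was flat through the HSC subsets and dropped at 2 later points. The first probe read 6.51 and 5.28 in LT-HSC, 5.70, 5.76 and 6.01 in ST-HSC, and 5.79, 6.01 and 5.66 in MPP. It read 4.76, 3.81 and 4.64 in CMP, 3.60, 4.39 and 4.59 in GMP, and 1.59, 1.57 and 1.83 in MEP. All HSC arrays were above all myeloid arrays, and the 3 MEP arrays were the lowest of the 17. HSC subsets exceeded myeloid populations by 2.42 ± 0.20 (SE), 5.37-fold, with an adjusted p of 1.46e-06, and by 2.16 with scan date in the fit (adjusted p = 0.00979).

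Means of Hoxb3 in the 3 HSC subsets lay within 0.07 of each other, between 5.82 and 5.89. The 95% interval of LT-HSC minus MPP ran from -0.74 to 0.88. MPP exceeded CMP by 1.42 (2.67-fold, adjusted p = 0.0168), which was lost without MPP replicate 2 (0.0612), MPP replicate 3 (0.0664) or CMP replicate 2 (0.0893), and with scan date in the fit (0.267). CMP exceeded MEP at least 5.51-fold (adjusted p = 6.21e-05) and GMP exceeded MEP at least 4.77-fold (9.72e-05). Both held with each array left out in turn, with scan date in the fit, at adjusted p of 0.000573 and 0.000790, and with the replicate number as a block (0.000162 and 0.000220). With normexp background correction no Hoxb probe was called from MPP to CMP, between CMP and MEP or between GMP and MEP. In the authors' table none was called between GMP and MEP. CMP and GMP differed by 0.21 (adjusted p = 1.0).

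The second Hoxb3 probe did not follow the first. It read between 3.00 and 4.29 on 16 arrays and 2.43 on the unnumbered MEP array, and only 6 of 17 arrays were well above background. The HSC minus myeloid difference was 0.19 (95% interval -0.34 to 0.73, adjusted p = 0.568). It was 0.94 with scan date in the fit (0.176), and with 75th percentile scaling it was 1.07 and called (0.0151).

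Hoxb4, the cluster gene best known for its effect on stem cells, stood well above background on all 17 arrays. It read 5.71 and 6.03 in LT-HSC, 6.26, 6.45 and 6.08 in ST-HSC, and 5.26, 5.28 and 6.14 in MPP. It read 5.31, 5.64 and 6.11 in CMP, 5.63, 6.13 and 6.50 in GMP, and 4.89, 5.43 and 5.86 in MEP. The highest single array was a GMP array and the lowest an MEP array, and all populations overlapped with others. In order of means ST-HSC at 6.26 and GMP at 6.08 led, followed by LT-HSC at 5.87, CMP at 5.69, MPP at 5.56 and MEP at 5.39, and no pair of neighbours in that order was called. The HSC minus myeloid difference was 0.18 ± 0.19 (SE, 95% interval -0.24 to 0.59, adjusted p = 0.495), and the F-test over populations gave 0.213. GMP exceeded MEP by 0.69 (0.190), which was called with the replicate number as a block (adjusted p = 0.0405). When each array was scaled to its 75th percentile instead, the median of all probes moved to 0.31 and Hoxb4 was called at 0.71 (adjusted p = 0.0109), so its result depends on the scaling.

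Hoxb5, which marks long-term stem cells, was highest in LT-HSC and fell in MPP, with a second drop beyond CMP. Whether that second drop was called depended on the processing. It read 6.63 and 5.98 in LT-HSC, 4.91, 4.71 and 5.84 in ST-HSC, and 3.29, 4.27 and 3.86 in MPP. It read 4.31, 4.26 and 4.29 in CMP, 2.91, 1.83 and 1.77 in GMP, and 1.87, 3.97 and 1.61 in MEP. Both LT-HSC arrays were above all others, all HSC arrays were well above background, and no GMP or MEP array was. The HSC minus myeloid difference was 2.11 ± 0.33 (SE), 4.32-fold, with an adjusted p of 0.000189, although MPP and CMP overlapped. It was 2.99 with scan date in the fit (adjusted p = 0.0177).

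LT-HSC exceeded MPP by 2.50 in Hoxb5 (5.64-fold, adjusted p = 0.0288). The call was lost without the pooled LT-HSC array (0.0920), the unnumbered LT-HSC array (0.0896), MPP replicate 2 (0.0830) or the unnumbered MPP array (0.0553), with differences of 2.17 to 2.86. It held with scan date in the fit, at 2.71 (0.0258). LT-HSC exceeded GMP at least 17.1-fold (adjusted p = 0.000351) and MEP at least 12.8-fold (0.000408), and both held with each array left out. The step from LT-HSC to ST-HSC was 1.15 (0.372) and from ST-HSC to MPP 1.34 (0.440), and MPP lay 0.48 below CMP (0.635). CMP exceeded GMP at least 4.22-fold (0.0426), which was lost without any one of 11 arrays, with adjusted p up to 0.160, and with the replicate number as a block (0.101). CMP exceeded MEP at least 3.15-fold (0.0379), which was lost without any of the 3 CMP arrays, MEP replicate 1 or the unnumbered MEP array, with adjusted p up to 0.151, with scan date in the fit (0.0698) and with the replicate number as a block (0.0780). Neither of these CMP calls was made with normexp background correction, and CMP was not called above GMP in the authors' table.

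**Figure D1:**
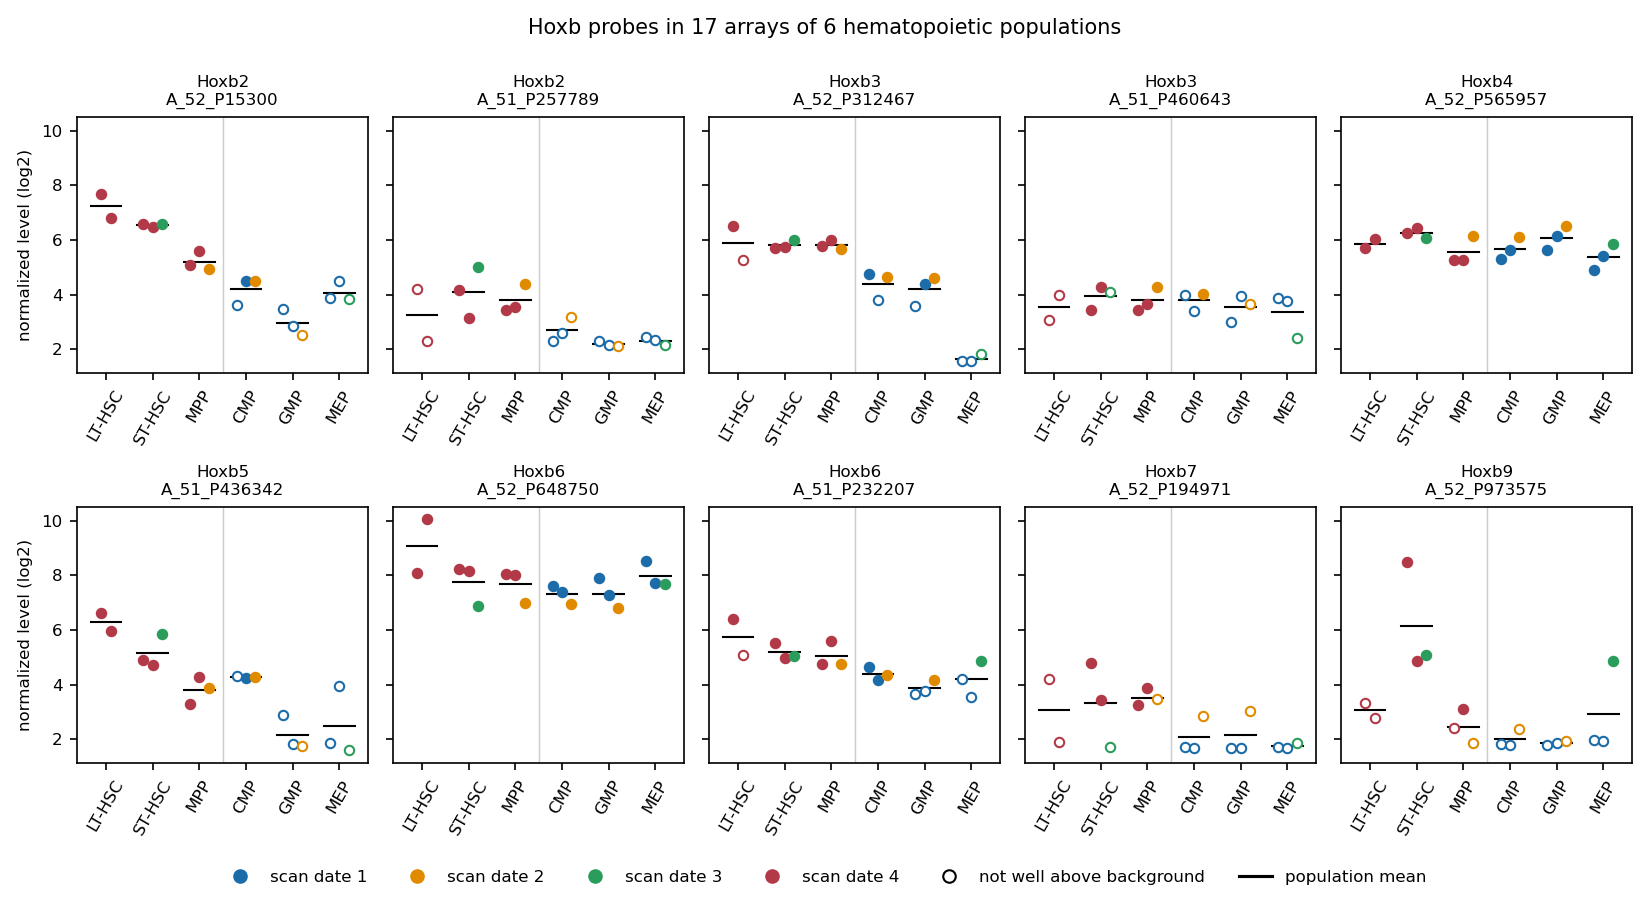
Normalized level (log2 intensity, y axis) of 10 Hoxb probes in the 6 populations (x axis); points are arrays colored by scan date, open points were not well above background, and bars are population means. Hoxb2 descends from LT-HSC, Hoxb3 is level through MPP and lowest in MEP, the populations overlap in Hoxb4 (GMP was called above MEP, by 0.69, when the replicate number was a block), and Hoxb5 is highest in both LT-HSC arrays, 6.63 and 5.98.

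Hoxb6, a gene of the posterior part of the cluster, gave unlike results by probe. The probe at 96162563 to 96162622 read 6.42 and 5.09 in LT-HSC, 5.54, 5.0 and 5.06 in ST-HSC, and 4.77, 5.59 and 4.78 in MPP. It read 4.64, 4.19 and 4.37 in CMP, 3.66, 3.78 and 4.17 in GMP, and 4.19, 3.56 and 4.87 in MEP. Only the unnumbered MEP array reached the range of the HSC arrays. HSC subsets exceeded myeloid populations by 1.17 ± 0.23 (SE), 2.25-fold, with an adjusted p of 0.00106, and by 0.53 with scan date in the fit (0.498). No neighbouring populations differed, while LT-HSC exceeded GMP by 1.88 (adjusted p = 0.00540), which was lost without the pooled LT-HSC array (1.21, 0.0700) and with scan date in the fit (1.11, 0.259).

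The other Hoxb6 probe was well above background everywhere. It read 8.10 and 10.07 in LT-HSC, 6.88 to 8.22 in ST-HSC, 7.01 to 8.04 in MPP, 6.94 to 7.61 in CMP, 6.79 to 7.89 in GMP and 7.68 to 8.51 in MEP. The single value of 10.07 came from the unnumbered LT-HSC array, the dimmest of the 17. The HSC minus myeloid difference was 0.64 (95% interval -0.04 to 1.31, adjusted p = 0.122). It ranged from 0.31 to 0.97 with each array left out, and was called without the pooled LT-HSC array (0.97, 0.0171) or the unnumbered ST-HSC array (0.78, 0.0487), and with the replicate number as a block (1.19, 0.000871). It was 0.13 with scan date in the fit (0.921). LT-HSC exceeded GMP by 1.77 (0.0380), and by 0.79 without that LT-HSC array (0.453). This call was also lost without CMP replicate 2 (0.0504), GMP replicate 2 (0.0836) or the unnumbered GMP array (0.109), and with scan date in the fit (0.388).

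Hoxb7 and Hoxb9, at the posterior end, were well above background on few arrays. Hoxb7 read 4.21 and 1.92 in LT-HSC, 4.78, 3.45 and 1.71 in ST-HSC, 3.25, 3.88 and 3.46 in MPP, and 1.68 to 3.06 on the myeloid arrays. It was well above background on 4 arrays, 2 of ST-HSC and 2 of MPP, all scanned on one date. HSC subsets exceeded myeloid populations at least 2.21-fold (difference 1.31, adjusted p = 0.0269). With scan date in the fit the difference was 0.0013 (0.999), and the call was lost without the pooled LT-HSC array, MPP replicate 3, or replicate 1 or 2 of CMP or GMP, with adjusted p up to 0.107.

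The first Hoxb9 probe, at 96137748 to 96137807, was highest in ST-HSC, with a wide spread. It read 8.49, 4.88 and 5.08 there, 3.34 and 2.80 in LT-HSC, 2.40, 3.13 and 1.88 in MPP, 1.81 to 2.39 in CMP and GMP, and 1.99, 1.95 and 4.88 in MEP. The unnumbered MEP array, on the same slide as the ST-HSC array at 5.08, stood with ST-HSC. ST-HSC exceeded GMP at least 18.3-fold (adjusted p = 0.00488), a call that held with each array left out. ST-HSC exceeded CMP at least 16.4-fold (0.0163), which was lost without CMP replicate 1 (0.0703) or 2 (0.0728). With scan date in the fit neither was called, at 2.14 for GMP (0.374) and 1.99 for CMP (0.608). The step from ST-HSC to MPP was 3.68 (0.0543). The HSC minus myeloid difference was 1.62 (adjusted p = 0.0266). It was lost without the pooled LT-HSC array, MPP replicate 3, or MEP replicate 1 or 2, with adjusted p up to 0.0649, and turned to -0.34 with scan date in the fit (0.885).

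The second Hoxb9 probe did not share the ST-HSC peak. It read 3.93 and 3.76 in LT-HSC, 2.80, 2.27 and 1.59 in ST-HSC and 3.40, 3.01 and 1.60 in MPP, and 1.59 to 3.06 on myeloid arrays. It was well above background on 3 arrays and on neither LT-HSC array. HSC subsets exceeded myeloid populations at least 1.81-fold (difference 1.12, adjusted p = 0.00555), against 0.18 with scan date in the fit (0.841).

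Hoxb1 and Hoxb8 were the quiet members. Hoxb1, the most anterior gene of the cluster and printed as 10 spots, was well above background on 1 MPP array and lay between 1.69 and 2.14 on all arrays. Both Hoxb8 probes lay between 1.61 and 2.47 on all 17 arrays and never rose well above background. Their HSC minus myeloid differences were 0.07 for Hoxb1 (adjusted p = 0.513) and 0.15 (0.276) and 0.00 (0.969) for Hoxb8. For Hoxb8 these arrays therefore give no measured level.

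Over the 6 populations, the F-test called 7 of the 14 Hoxb probes, where 40.6% of all probes were called. They were both probes each of Hoxb2 and Hoxb9, the first of Hoxb3, the one of Hoxb5, and the Hoxb6 probe at 96162563. With scan date in the fit 3 remained, one each of Hoxb2 (adjusted p = 0.00418), Hoxb3 (0.000857) and Hoxb5 (0.00838). In the comparison of HSC subsets with myeloid populations, 4 of 14 were called with scan date in the fit, both probes of Hoxb2 and those of Hoxb3 and Hoxb5, where 13.2% of all probes were. Along the chromosome, the differences were largest at 13.33, 19.45 and 61.32 kb from the Hoxb1 probe (the first probes of Hoxb2 and Hoxb3, and Hoxb5), with Hoxb4 near 0 between them at 46.93 kb.

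**Figure D2:**
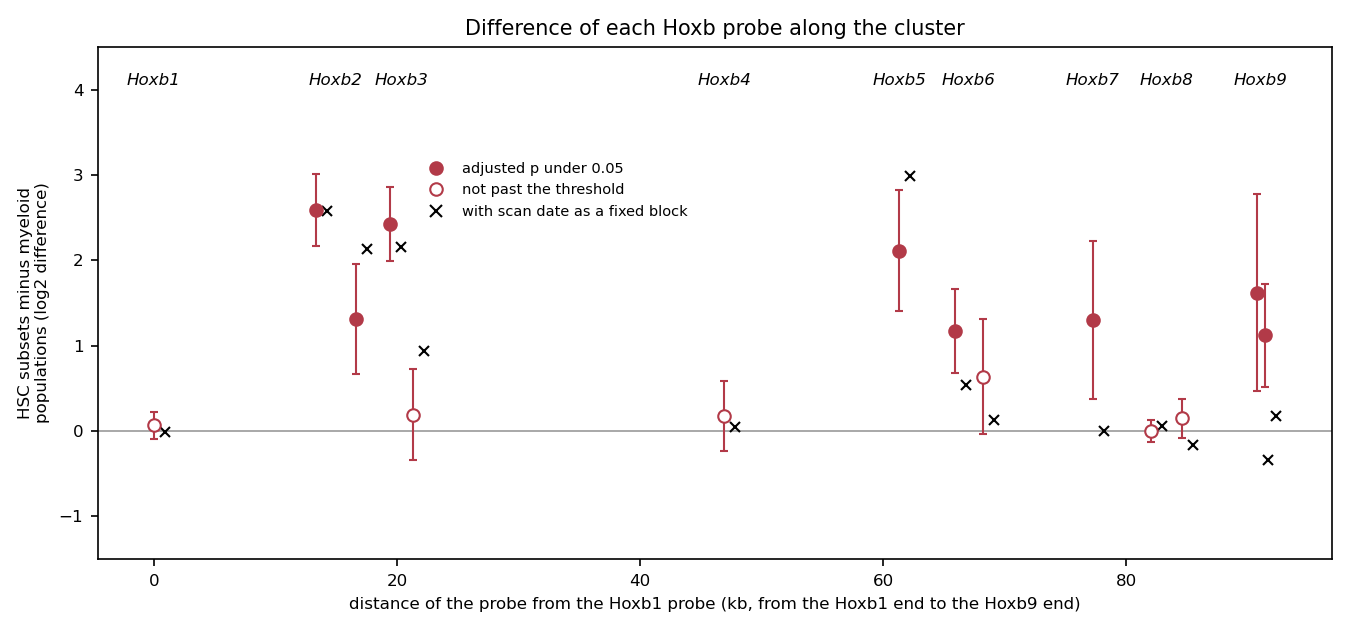
HSC minus myeloid difference (log2, y axis) of each Hoxb probe against its distance from the Hoxb1 probe (kb, x axis), with 95% intervals; filled points were called at adjusted p under 0.05, and crosses, set slightly to the right, show the same with scan date in the fit. Hoxb2 (2.59), Hoxb3 (2.42) and Hoxb5 (2.11) stay high under both, whereas the first Hoxb9 probe moves from 1.62 to -0.34.

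Within slides, where scan date and slide were shared, the order was as follows. The unnumbered ST-HSC array exceeded the MEP array beside it by 2.73 in the first Hoxb2 probe, 2.87 in the clone probe, 4.18 in the first Hoxb3 probe and 4.23 in Hoxb5. The MEP array was not well above background in any of these probes, so the values are measured differences and give no fold. The same pair differed by 1.65 in the second Hoxb3 probe, 0.22 in Hoxb4, 0.19 in the Hoxb6 probe at 96162563, -0.81 in the brightest Hoxb6 probe, -0.15 in Hoxb7 and 0.20 in the first Hoxb9 probe, and neither array was well above background in the second Hoxb3 probe or Hoxb7. On the other slide, the MPP array exceeded the mean of CMP and GMP by 1.45 in the first Hoxb2 probe, 1.04 in the first Hoxb3 probe and 0.83 in Hoxb5, by 0.50 in both Hoxb7 and the Hoxb6 probe at 96162563, by 0.43 in the second Hoxb3 probe and by 0.14 in the brightest Hoxb6 probe. It exceeded them by 1.73 in the clone probe and differed by -0.17 in Hoxb4 and -0.29 in the first Hoxb9 probe. In Hoxb5 the MPP array, at 3.86, lay below the CMP array, at 4.29, and above the GMP array, at 1.77. On this slide no array was well above background in Hoxb7 or the first Hoxb9 probe, and the GMP array was not in either Hoxb2 probe, the second Hoxb3 probe or Hoxb5. The CMP array was not well above background in the clone probe either. These are single pairs or trios of arrays, with no replicate. Without either LT-HSC array, Hoxb2, Hoxb3 and Hoxb5 were still called, at 2.16, 2.46 and 1.56.

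Between neighbouring populations, the calls among Hoxb probes were as follows. From LT-HSC to ST-HSC, limma called 0 of 14 (3 at unadjusted p under 0.05), where 3.34% of all probes were called, and from ST-HSC to MPP 0 of 14 (4 at unadjusted p under 0.05; 0 also with the replicate number as a block), where 2.02% were. From MPP to CMP it called 1, Hoxb3, against 12.1% of all probes. Between CMP and GMP it called 2, Hoxb2 and Hoxb5, against 4.77%, and between CMP and MEP 2, Hoxb3 and Hoxb5, against 16.7%. Between GMP and MEP it called 2, with Hoxb3 higher in GMP and Hoxb2 higher in MEP, against 17.4%. With the replicate number as a block, 0 were called between CMP and GMP, between CMP and MEP only Hoxb3, and between GMP and MEP Hoxb2, Hoxb3 and also Hoxb4 (0.69 higher in GMP, adjusted p = 0.0405). With normexp background correction none was called from MPP to CMP or among CMP, GMP and MEP. In the authors' table none was called between CMP and GMP or between GMP and MEP.

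**Figure D3:**
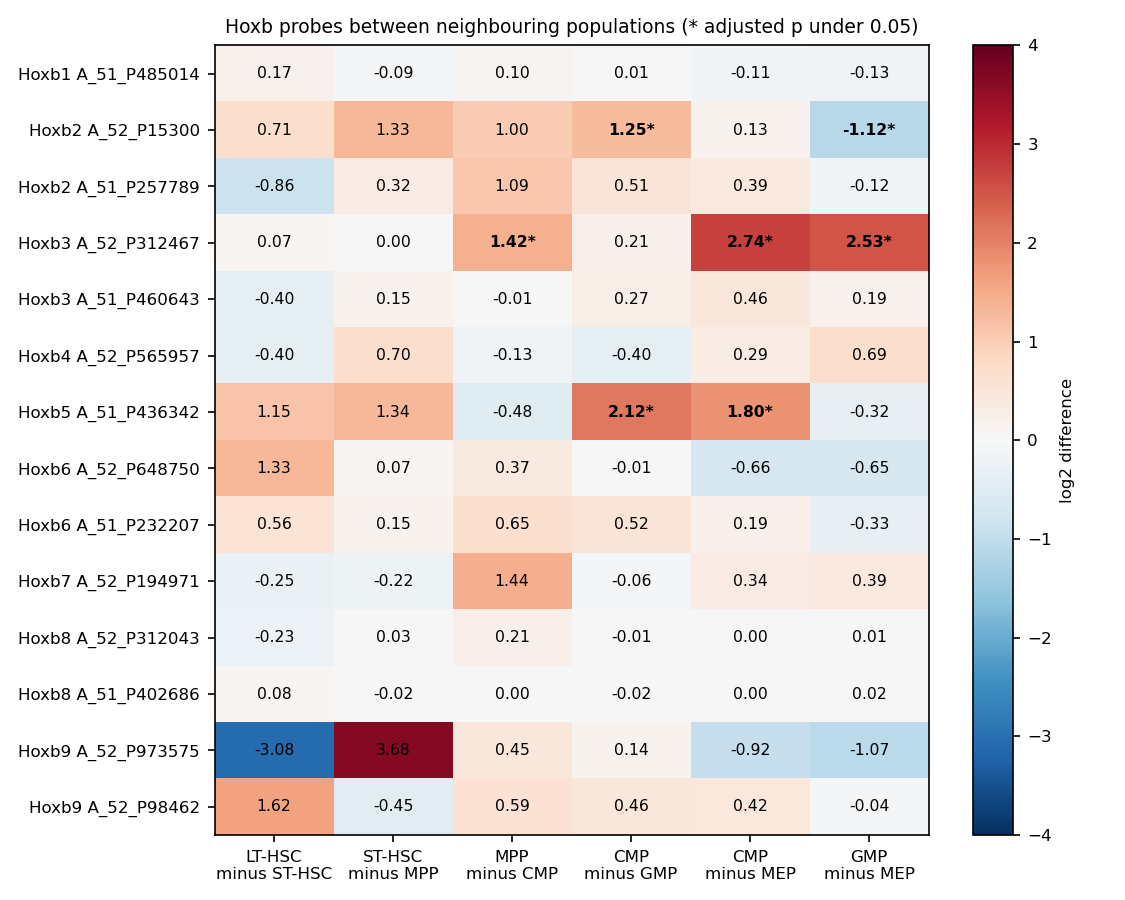
Difference in log2 level (color and printed value) of 14 Hoxb probes (rows) between 6 pairs of neighbouring populations (columns); an asterisk marks adjusted p under 0.05. The marked cells are those counted above. All cells are measured differences and are not folds where a population was not well above background, as in MEP for Hoxb3 (GMP at least 4.77-fold higher) and in both GMP and MEP for Hoxb2.

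Other Hox genes, of the Hoxa, Hoxc and Hoxd clusters and Hoxb13, were read for comparison. Of 36 probes of 29 further Hox genes, 7 were higher and 3 lower in HSC subsets, with a median of 0.14, where 18.2% of all probes were higher and 23.1% lower, with a median of -0.02. By the brightest probe, the Hoxa relatives of the called Hoxb genes were Hoxa2, higher by 2.64 (adjusted p = 5.88e-07), Hoxa5, by 3.77 (8.49e-06), Hoxa7, by 1.52 (1.16e-05), and Hoxa9, by 1.65 (1.04e-07). With scan date in the fit these 4 were still called, at 2.89, 2.33, 1.34 and 1.62. Hoxa6 was higher by 1.09 (0.00539), and by 0.52 with scan date in the fit (0.448).

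In group 3 the probes of each gene differed. Hoxb3 was higher by 2.42 in its first probe and at 0.19 in its second, while Hoxa3, well above background on all 17 arrays by its brightest probe, differed by 0.03 (0.863), and its other probe was at 1.08 (0.225). In group 4 neither gene was called by its brightest probe, with Hoxb4 at 0.18 and Hoxa4 at -0.40 (0.400), although the dimmer Hoxa4 probe was called at -1.18 (0.0113). These pairs were not tested against each other. Hoxa10, which has no Hoxb partner, had the largest difference of the list, 5.03 (6.88e-10), and Hoxc5, well above background on 1 HSC array and no myeloid array, was at a difference of -1.34 (0.000476), for which no fold is given. Hoxb13, which lies apart from the rest of the cluster, was at -0.79 (0.363).

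**Figure D4:**
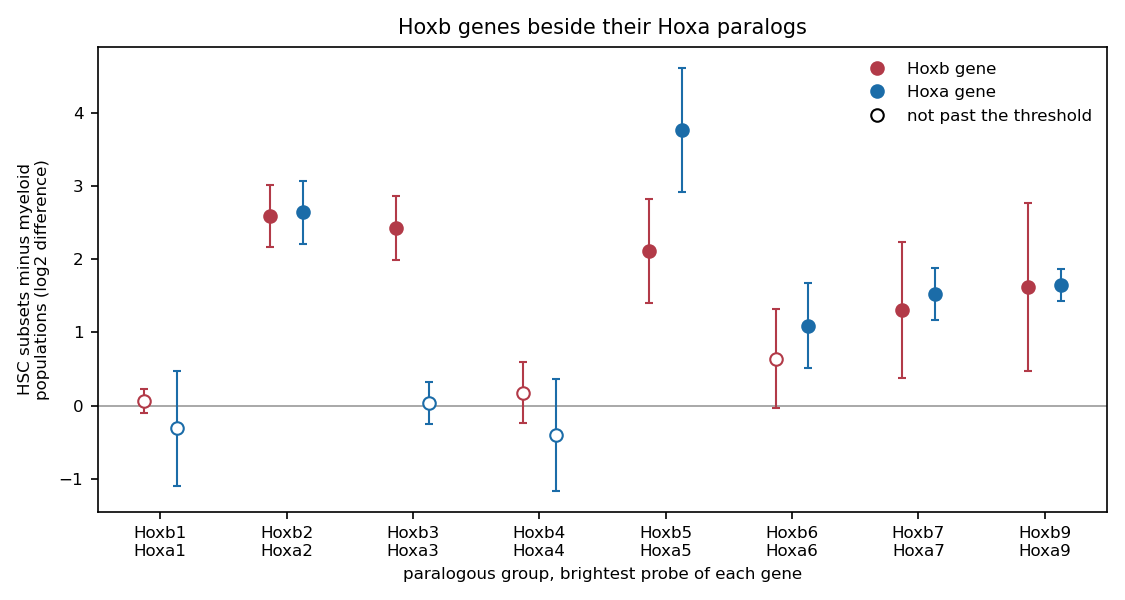
HSC minus myeloid difference (log2, y axis) of the brightest probe of each Hoxb gene and its Hoxa paralog by paralog group (x axis), with 95% intervals. Groups 2 and 5 are high in both clusters, group 3 is high in Hoxb3 (2.42) and near 0 in Hoxa3 (0.03), and group 4 is near 0 or below in both.

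Among the TALE cofactors, the Meis, Pbx and Pknox proteins that bind DNA with Hox factors, 7 of 20 probes were higher in HSC subsets and 4 lower, with a median of 0.24 over the probes, which named 9 genes. Over all probes, 18.2% were higher and 23.1% lower, with a median of -0.02. Meis1 was read in its brightest probe (mean ± SD, n = 2 in LT-HSC and 3 elsewhere). It stood at 9.19 ± 0.31 in LT-HSC, 9.24 ± 0.39 in ST-HSC and 9.11 ± 0.30 in MPP. It then stood at 8.20 ± 0.17 in CMP, 6.47 ± 0.23 in GMP and 4.57 ± 0.26 in MEP, where this probe was not well above background. It was level through MPP and lowest in MEP, as was Hoxb3. Its HSC minus myeloid difference was 2.77 ± 0.14 (SE, adjusted p = 1.98e-08), and 2.39 with scan date in the fit (0.000424). The dimmer Meis1 probe, well above background on 16 arrays, was at 1.87 (0.000356). Meis2, well above background on 2 HSC arrays and no myeloid array, was higher at least 1.91-fold (difference 0.95, 0.0233), and by 1.13 with scan date in the fit (0.319). Its other probes were at 0.26 (0.489) and -0.35 (0.0251), the latter well above background on 0 arrays. Pbx4 differed by -0.24 (0.0614) between the sides, and its second probe was called at -0.45 (0.0149). Pbx3 differed by -0.40 (0.00818), and by -0.43 with scan date in the fit (0.0861).

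Known regulators of Hox genes, among them trithorax and Polycomb chromatin proteins, retinoid receptors and NF-Y subunits, gave 15 probes higher and 22 lower of 59, with a median of -0.26 over the probes, where 18.2% of all probes were higher and 23.1% lower, with a median of -0.02. By the brightest probe of each of the 36 genes, 12 were higher and 9 lower, and the median was -0.03. Cyp26b1, which degrades retinoic acid, was at least 4.76-fold higher in HSC subsets (difference 2.25, adjusted p = 0.000423), and the retinoid receptors Rarb and Rxra by 1.60 and 1.17, while their second probes were at -0.58 (0.214) and 0.48 (0.101). The Polycomb genes Cbx7 and Phc1 were higher by 1.25 and 1.11, though other Phc1 probes were at 0.79 and -1.63. Gata1, the erythroid factor, differed by -2.69 (2.48e-06), the NF-Y subunit Nfyc by -1.61 (0.000118), the Polycomb methyltransferase Ezh1 by -1.32 (0.00335), the MLL partner Men1 by -1.20 (0.000276) and Usf1 by -0.64 (0.00247). Of these, Rxra (1.16, 0.000761), Phc1 (0.63, 0.0156) and Gata1 (-1.83, 0.0222) were called with scan date in the fit. Under it Ezh1 was at 0.04 (0.965), Men1 at -0.25 (0.395), Usf1 at -0.17 (0.729), Nfyc at -0.65 (0.257), Cyp26b1 at 2.85 (0.0536), Rarb at 1.21 (0.108) and Cbx7 at 1.0 (0.0664).

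Genes flanking the cluster moved in both directions. Of 25 probes of 17 genes, 6 were higher and 8 lower, with a median of 0.03, beside the same 18.2% and 23.1% of all probes and their median of -0.02. Abi3, an actin regulator, was higher by 1.60 (adjusted p = 6.54e-07), Skap1, an adaptor of T cell signaling, by 1.58 (5.91e-05), Snx11 by 1.20 (0.00170), Nfe2l1 by 0.81 (8.78e-05), and Gngt2 at least 2.09-fold (difference 1.15, 0.0289). The second probe of Snx11 was at -1.92. Snf8 differed by -0.79 (8.66e-06), Phospho1 by -0.60 (0.0388) and Atp5g1 by -0.55 (0.000184). Abi3, Skap1, Snf8 and Atp5g1 were also called with scan date in the fit, at 1.78, 2.19, -0.64 and -0.61, while Snx11 was then at 0.04 (0.934), Nfe2l1 at 0.28 (0.219), Gngt2 at 1.60 (0.125) and Phospho1 at -0.59 (0.443). Between the unnumbered ST-HSC and MEP arrays of one slide, Skap1 differed by -0.0007.

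The genes most like a member were taken by Pearson r over the 17 arrays among 15812 genes. Only members well above background on 8 or more arrays entered, so Hoxb1, Hoxb7, Hoxb8 and Hoxb9 did not. This is a description only, since the arrays share populations and scan dates. Nearest to Hoxb2 were Mpzl1 (r = 0.95), Tcf15 (0.95) and Timp2 (0.94). Nearest to Hoxb3 were Cyp2j9, Ifitm1 and Cav2, each at 0.97. Those nearest to Hoxb5 were Obsl1 (0.92), Jam2 (0.91) and Nbea (0.89), and to Hoxb4 Mon1a (0.85), Pex11c (0.82) and Mxra7 (0.81). Hoxb6, in its brightest probe, was nearest to a probe with no gene name (0.97), Tlr9 (0.96) and Krtap5-1 (0.95). None of the names is a Hox gene.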

How the data were processed

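For each array the authors deposited scanner output of Agilent Feature Extraction (10.2.1.3 and 9.5.3.1 per the file headers), in which spot intensity is background-corrected without normalization across arrays. A log2 table, also deposited by the authors, served as an alternative. Following the methods, log2 intensities were quantile normalized with limma 3.58.1 (R 4.3.3). Control spots (1639) and outlier spots were then left out (161 probe values missing) and spots of a probe averaged. A single fit of all 17 arrays (lmFit, eBayes, 1 mean for each population) used Benjamini-Hochberg adjustment over 41174 probes at 0.05. The fit was tested on simulated data. All Hoxb probes are described. Listed genes are named where their brightest probe was called over the populations, up to 5 each way, plus Meis1 and Hoxa relatives. The 3 nearest genes are named for members well above background on 8 or more arrays. One gene of this rule is not reported here. Hoxb13 and second probes of listed genes were named after their values were seen. Members and lists were chosen with earlier results of these data known. Some listed names (Hoxc11, Hoxb3os and Hoxb5os among them) matched no probe, and Kmt2a was read under its older name, Mll1. Arrays of the same number (or of none) deviated from their population means together between ST-HSC and MPP (r = 0.50 to 0.78) and among CMP, GMP and MEP (0.21 to 0.68), but not with LT-HSC or between the sorts (-0.11 to 0.13). Most of the former also shared a slide. The labels do not say what the numbers mark, so values with the number as a block stand beside calls between ST-HSC and MPP and among CMP, GMP and MEP. The number of arrays limits the precision. Alternatives were 75th percentile scaling, normexp (offset 50), the deposited table, a dim-probe filter, blocks for scan date, slide or replicate number, the brightest probe or the mean of probes per gene, and arrays left out.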

Additional observations from a re-analysis of the deposited data

How the results depend on the processing

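The difference of the first Hoxb2 and Hoxb3 probes and of Hoxb5 between HSC subsets and myeloid populations was called in every alternative run, while its size fell with normexp and in the authors' table. The causes of the changes below were not tested, except where fewer probes or arrays entered. Counts that moved little under a setting are left out below.

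The counts are of Hoxb probes unless another list is named, beside 7 over the populations, 8 between HSC subsets and myeloid populations, 0 (LT-HSC and ST-HSC), 0 (ST-HSC and MPP), 1 (MPP and CMP) and 2 each (CMP and GMP, CMP and MEP, GMP and MEP), with 10 for other Hox genes, 11 for TALE cofactors, 37 for regulators and 14 for flanking genes. With 75th percentile scaling they were 1 (ST-HSC and MPP), 3 (MPP and CMP), 1 (CMP and GMP), 1 (CMP and MEP), 1 (GMP and MEP) and 7 TALE probes, and the second Hoxb3 probe was called at 1.07 (adjusted p = 0.0151). With normexp they were 1 (ST-HSC and MPP) and 0 for the 4 later pairs, and the second Hoxb3 probe was at -0.0033. With the authors' table they were 1 (ST-HSC and MPP), 0 (CMP and GMP), 1 (CMP and MEP) and 0 (GMP and MEP), and the second Hoxb3 probe was at -0.0425. The filter on dim probes gave 2 (ST-HSC and MPP).

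Scan date as a block gave 3 over the populations, 4 between HSC subsets and myeloid populations, 0 (MPP and CMP), 1 each for CMP and GMP, CMP and MEP, and GMP and MEP, 6 other Hox, 4 TALE, 10 regulator and 4 flanking probes. Of all probes, 33.5% were called over the populations and 13.2% between HSC subsets and myeloid populations under it. Hoxb1 was then at -0.01 (-0.007), a Hoxb8 probe at -0.16 and the first Hoxb9 probe at -0.34. Slide as a random block gave 4 over the populations, where 34.8% of all probes were called, with 2 (ST-HSC and MPP) and 5 TALE probes. Taking the brightest probe per gene gave 4 over the populations, 5 between HSC subsets and myeloid populations, 2 (ST-HSC and MPP), 7 TALE and 21 regulators. Of all genes, 40.2% were then called over the populations and 40.7% between HSC subsets and myeloid populations. The mean of probes gave 0 (MPP and CMP), 1 (CMP and GMP), 1 (GMP and MEP), 6 TALE and 21 regulators. Without LT-HSC they were 1 (ST-HSC and MPP), 2 (MPP and CMP) and 1 (CMP and GMP), and a Hoxb8 probe was at -0.02 (-0.0216).

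With the replicate number as a block, the F-test also lost both Hoxb9 probes and the Hoxb6 probe at 96162563 and gained the brightest Hoxb6 probe. The replicate block gave 2 (LT-HSC and ST-HSC), 2 (MPP and CMP), 0 (CMP and GMP), 1 (CMP and MEP) and 7 TALE probes, with Hoxb4 at -0.04 (-0.0419).

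With each array left out in turn, counts were 5 to 8 over the populations, 6 to 9 between HSC subsets and myeloid populations, 0 to 1 (LT-HSC and ST-HSC), 0 to 1 (ST-HSC and MPP), 0 to 2 (MPP and CMP), 0 to 2 (CMP and GMP), 1 to 2 (CMP and MEP) and 1 to 2 (GMP and MEP). They were 8 to 13 for other Hox, 9 to 13 for TALE, 32 to 38 for regulator and 11 to 14 for flanking probes. Of all probes, 35.4% to 45.9% were called over the populations and 36.2% to 44.5% between HSC subsets and myeloid populations. A Hoxb8 probe ranged from -0.0128 to 0.0195. The probes of Hoxb1, Hoxb7, Hoxb8 and Hoxb9 were each well above background on 5 arrays or fewer, and signal over background limits their values on the other arrays.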
